A study of Mus musculus with 14 samples.

Results

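The small leucine-rich proteoglycans described here are Lum, Dcn, Ogn, Bgn and Fmod, the genes of lumican, decorin, osteoglycin (mimecan), biglycan and fibromodulin. They were taken as every probe set that the platform annotation gives to these symbols, which came to 8 probe sets of 5 genes among 12488 probe sets of 8251 genes. Of the 8 probe sets, 7 passed the filter on low signals, and at least 1 of each gene did. The genes were chosen by their signals in rejecting allografts, so their differences in rejection are given as a description, with counts of calls from which nothing is read and no p of their own. The other comparisons are tested.

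The signals come from 14 transplanted mouse hearts, 1 MG-U74Av2 oligonucleotide array each. Rejecting allografts were Balb/c hearts in C57/BL6 recipients without antibody, taken at day 7 (n = 3). Tolerizing allografts were Balb/c hearts in C57/BL6 recipients treated with monoclonal antibodies against CD80 and CD86, ligands by which antigen-presenting cells costimulate T cells, and were taken at day 70 (n = 3) and day 7 (n = 3). Isografts were C57/BL6 hearts in C57/BL6 recipients, taken at day 70 (n = 2) and day 7 (n = 3). All hearts were transplanted, so no group shows a heart without surgery. Donor strain differs between every allograft and every isograft and cannot be told apart from the response to the graft, but rejecting and tolerizing allografts share donor and recipient strains. The labels give neither age nor sex, nor whether the hearts of a group came from separate operations, so p-values measure the spread between these hearts.

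Small leucine-rich proteoglycans are secreted proteins of the extracellular matrix, built of leucine-rich repeats and, in most members, carrying glycosaminoglycan chains. They bind collagen fibrils and regulate their assembly and width, and decorin and biglycan also bind transforming growth factor beta. Biglycan set free from the matrix is known as a ligand of Toll-like receptors, and in the heart these proteins come mainly from fibroblasts. Decorin and biglycan are class I members, lumican and fibromodulin class II members, and osteoglycin is a class III member.

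The 250 bases before the annotated start of Ogn, Bgn and Fmod are shown because the genes share a family but not a signal pattern, as the values below give. The sequences are from RefSeq, build GRCm38.p6, on the plus strand, at chr13:49607765-49608014 for Ogn, chrX:73483351-73483600 for Bgn and chr1:134037004-134037253 for Fmod. Capitals mark matches, on either strand, to the 5 motifs searched, which were TATAAA and GGGCGG, the partly open TGANTCA and the wider TTCNNNGAA, and the short CAGAC.
Ogn promoter: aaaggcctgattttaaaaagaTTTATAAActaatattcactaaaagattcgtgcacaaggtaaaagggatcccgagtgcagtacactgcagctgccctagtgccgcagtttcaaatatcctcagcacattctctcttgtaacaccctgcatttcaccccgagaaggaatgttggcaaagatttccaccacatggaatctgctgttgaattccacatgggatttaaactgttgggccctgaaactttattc
Bgn promoter: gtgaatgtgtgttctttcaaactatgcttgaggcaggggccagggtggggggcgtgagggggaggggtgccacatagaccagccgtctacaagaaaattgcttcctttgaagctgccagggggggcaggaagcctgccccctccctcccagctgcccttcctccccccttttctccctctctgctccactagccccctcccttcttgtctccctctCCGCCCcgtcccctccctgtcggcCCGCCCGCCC
Fmod promoter: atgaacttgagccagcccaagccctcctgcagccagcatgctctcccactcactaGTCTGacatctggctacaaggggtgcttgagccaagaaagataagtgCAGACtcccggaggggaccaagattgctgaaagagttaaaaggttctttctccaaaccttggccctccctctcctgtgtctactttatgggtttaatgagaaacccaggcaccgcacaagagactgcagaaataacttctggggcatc
The Ogn window held 2 overlapping matches to TATAAA, which begin 229 and 227 bases before the start, and 12.4% of all 32851 promoter windows of this length hold that motif. The Bgn window held 3 matches to GGGCGG, at 34, 10 and 6 bases before the start and the last 2 of them overlapping, a motif present in 32.7% of windows. The Fmod window held 2 matches to CAGAC, at 195 and 148 bases, a motif present in 42.2% of windows. The G and C content was 42.0% for Ogn, 64.4% for Bgn and 51.2% for Fmod, against a median of 52.4%. The other motifs, TGANTCA in 6.75% and TTCNNNGAA in 7.02% of windows, had no match in these 3 windows.

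The hearts were checked on genes of the contractile apparatus. Myh6, the alpha myosin heavy chain of heart muscle, read 3642 to 5444 and 1991 to 3722 in tolerizing allografts of days 70 and 7, against 4976 to 6465 and 3487 to 4936 in isografts of the same days. In rejecting allografts it read 108.7, 76.3 and 2212, so rejecting heart number 3 stood apart from the other 2. That heart also had the lowest rejecting signals of Dcn, Bgn and the collagen gene Col1a1. Many of the counts and values that involve rejecting hearts are therefore given also without it. The arrays fall into 2 runs of accession numbers, each with all 5 groups, and rejecting heart number 3 is the only rejecting heart of the first run. In deviations from group means, array pairs had a median correlation of 0.092 within a run and -0.1 across runs. RNA quality was read from the beta-actin control as its 3' over 5' signal, which was 1.26 to 1.61 in rejecting hearts, 1.24 to 1.69 and 1.09 to 1.37 in tolerizing hearts (days 70 and 7) and 1.75 to 1.76 and 1.52 to 1.98 in isografts (days 70 and 7). Its part in the results was tested only as a covariate.

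Decorin, the class I member that binds type I collagen, was abundant in every group. Dcn (93534_at) gave signals of 1197, 822.4 and 539.5 in rejecting hearts, against 2428, 2902 and 2832 in tolerizing hearts at day 7 and 3758, 3976 and 3937 in isografts at day 7. It gave 3029, 3243 and 2308 in tolerizing hearts and 4139 and 3523 in isografts at day 70. The 3 rejecting hearts were below all 11 others, and the tolerizing hearts of either day were below the isografts of the same day without overlap. Ordered by group mean, isografts at day 7 (3890 ± 117, SD) and at day 70 (3831 ± 436) came first and overlapped, tolerizing hearts at day 70 (2860 ± 490) and at day 7 (2720 ± 256) followed and overlapped, and rejecting hearts (853 ± 330) came last.

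Biglycan, the other class I member, overlapped between rejecting hearts and isografts. Bgn (96049_at) read 2546, 1542 and 924.4 in rejecting hearts, against 3351, 3445 and 3850 in tolerizing hearts at day 7 and 4309, 1616 and 3293 in isografts at day 7. At day 70 it read 3011, 1817 and 2540 in tolerizing hearts and 1487 and 2398 in isografts. The rejecting hearts lay below the tolerizing hearts of day 7 but overlapped the isografts, whose lowest heart was close to the middle rejecting heart. The other probe set, 162347_f_at, read 452, 440.9 and 254.5 in rejecting hearts, against 584.4, 518.1 and 512.6 in tolerizing hearts and 426.8, 446 and 449.8 in isografts at day 7. The 2 probe sets had a Pearson correlation of 0.75 over the 14 arrays, which share the group differences.

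Lumican, a class II member first known from the cornea, was far above the floor for low signals in every heart. Lum (93353_at) read 133.8, 206.2 and 166.4 in rejecting hearts, against 1263, 970.9 and 990.2 in tolerizing hearts at day 7 and 1154, 1019 and 1246 in isografts at day 7. At day 70 it read 742.6, 549.4 and 600.1 in tolerizing hearts and 819.3 and 887.4 in isografts. No rejecting heart came near any other heart, and rejecting heart number 3 lay between the other 2. By group mean the order was isografts at day 7 (1139 ± 115), tolerizing hearts at day 7 (1075 ± 164), isografts at day 70 (853 ± 48.2), tolerizing hearts at day 70 (631 ± 100) and rejecting hearts (169 ± 36.3). Of these neighbours, only the first pair overlapped.

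Fibromodulin, the other class II member, was near the limit of detection. Fmod (99152_at) read 10.8, 3.6 and 3.4 in rejecting hearts, all under the floor of 11 that was set for low signals. It read 11.8, 7.7 and 9.0 in tolerizing hearts, against 116.6, 28.5 and 67.2 in isografts at day 7. At day 70 it read 74.4, 10.1 and 14.8 in tolerizing hearts and 74.2 and 7.9 in isografts. Thus only the isografts of day 7 were above the floor in every heart. The other probe set, 161373_r_at, was at or under the floor on 13 of 14 arrays and was not tested.

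Osteoglycin, the class III member, had the largest log2 differences of the 5 genes in rejection. Ogn (160877_at) read 7.6, 4.0 and 37.3 in rejecting hearts, against 270.1, 162.8 and 254.2 in tolerizing hearts at day 7 and 497.4, 279.8 and 752.3 in isografts at day 7. At day 70 it read 65.9, 179.6 and 141.2 in tolerizing hearts and 462.1 and 637.4 in isografts. The second probe set, 99549_at, read 19.2, 16.8 and 31.1 in rejecting hearts, against 288.4, 201.4 and 227.1 in tolerizing hearts and 423.5, 281.1 and 688.6 in isografts at day 7. At day 70 it read 86.3, 188.3 and 151.6 in tolerizing hearts and 479.3 and 374.9 in isografts. Both probe sets placed rejecting hearts lowest, with the highest rejecting signal in heart number 3, and both placed the tolerizing hearts of day 70 below the isografts of that day without overlap. Their correlation over the 14 arrays was 0.99.

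**Figure D1:**
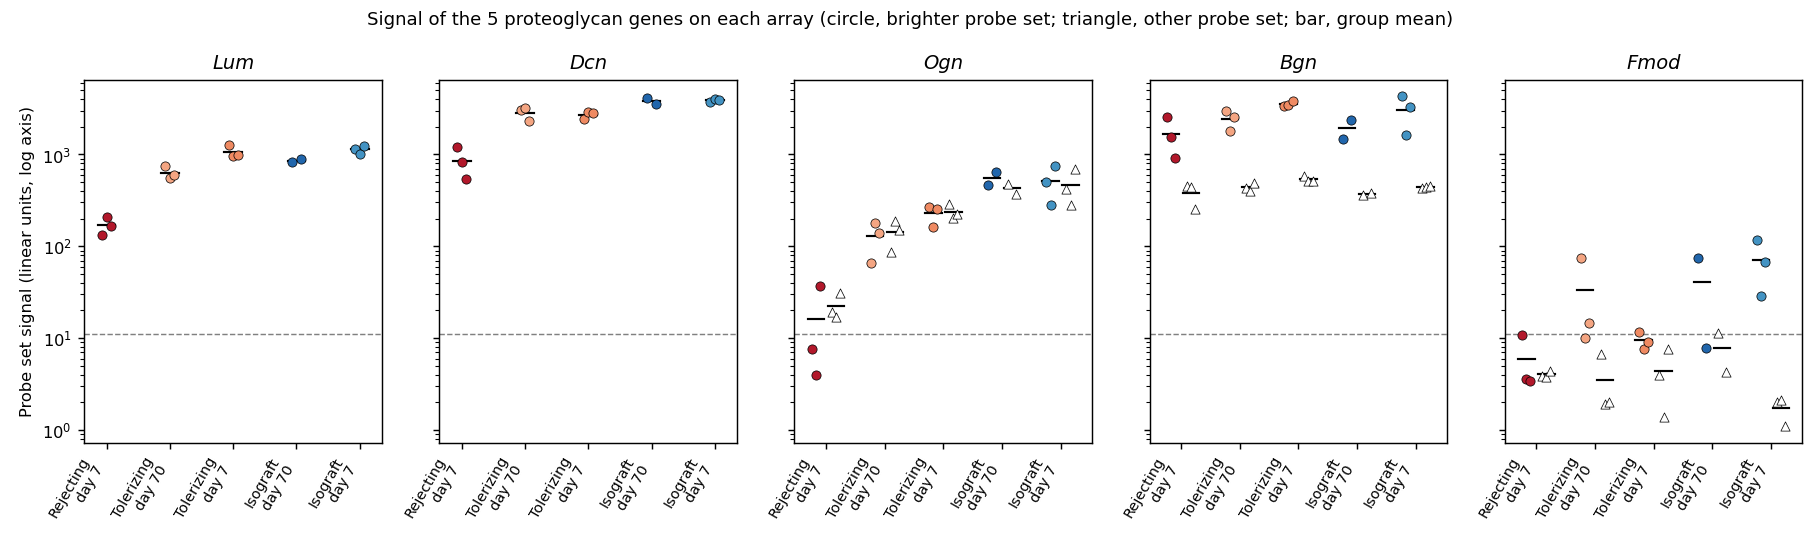
Signal of each proteoglycan gene (linear units on a log axis) on each of the 14 arrays by group, with circles for the brighter probe set, triangles for the other one, bars for group means and a dashed line at the floor of 11. Lum, Dcn and Ogn are lowest in the 3 rejecting hearts, Bgn overlaps between rejecting hearts and isografts, and Fmod lies near or under the floor in all rejecting hearts and all tolerizing hearts of day 7.

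Setting rejecting allografts against day 7 isografts shows how far these genes stood from a healing graft of the recipient's own strain. All 5 genes had a difference below 0, with a median of -2.46 on the log2 scale against 0.04 over all tested probe sets, and 4 of 5 did not overlap and were lower, against 15.4% of all probe sets. That median is the value of Fmod, whose rejecting signals were all set to the floor, so it depends on the floor. At an adjusted p under 0.05, 4 of 5 were lower, against 9.18% of all probe sets, and nothing is read from these counts because this contrast led to the choice. The log2 difference was -2.77 (SE 0.19) for Lum, -2.26 (SE 0.27) for Dcn and -0.89 (SE 0.40) for Bgn. For Ogn it was -4.83 (SE 0.50), with 2 of the 3 rejecting hearts under the floor, and -4.33 (SE 0.35) on the second probe set, on which all hearts were above it. Fmod was at least 5.52-fold lower, taken against the floor. Without rejecting heart number 3 the log2 differences were -2.77 for Lum, -1.97 for Dcn, -4.60 for the second Ogn probe set and -0.52 for Bgn. Then 3 of 5 genes were called lower, against 10.6% of all probe sets, and nothing is read from this count either. The second Bgn probe set went to 0.02, against -0.25 with that heart. On the brighter Ogn probe set both remaining rejecting hearts were under the floor, which makes Ogn at least 42.8-fold lower there.

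Against tolerizing allografts at day 7, which share donor strain, recipient strain and day, the rejecting hearts were again low in Lum, Dcn and Ogn. The log2 difference was -2.68 (SE 0.19) for Lum, -1.74 (SE 0.27) for Dcn, -3.76 (SE 0.50) for Ogn, with -3.45 (SE 0.35) on its second probe set, and -1.20 (SE 0.40) for Bgn. Fmod lay near or under the floor in both groups and has no fold. Lower without overlap were 4 of 5 genes, against 7.76% of all probe sets, and 3 of 5 were lower at an adjusted p under 0.05, against 0.885%, again from a contrast that led to the choice. Without rejecting heart number 3 the differences were -2.68 for Lum, -1.45 for Dcn, -3.72 for the second Ogn probe set and -0.84 for Bgn, and Ogn was at least 20.3-fold lower on the brighter one. This comparison and the one before share the rejecting hearts.

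Tolerizing allografts at day 7 were set against isografts at day 7, which asks what remained of the difference under costimulation blockade. No gene of the 5 passed an adjusted p of 0.05 in limma, against 1.69% of all probe sets called in either direction, and 2 of the 5 had an unadjusted p under 0.05, as did 1348 of all 10395 probe sets. The interval for Lum was narrow, with a log2 difference of -0.09 (95% interval -0.50 to 0.32, adjusted p = 0.926), so a fall as large as that in rejection lies outside it. Dcn was at -0.52 (95% interval -1.09 to 0.05, adjusted p = 0.454), below isografts in all 3 hearts. With the beta-actin ratio in the fit Dcn was at 0.011, and that ratio did not overlap between these groups. Ogn was at -1.08 (95% interval -2.15 to -0.0019, adjusted p = 0.384) and at -0.88 (adjusted p = 0.295) on the second probe set, and Bgn at 0.32 (95% interval -0.54 to 1.18, adjusted p = 0.846). The second Bgn probe set was at 0.29 (adjusted p = 0.623), higher in all 3 tolerizing hearts than in any isograft of that day. Fmod was at -2.43 (SE 0.74, adjusted p = 0.145), with the tolerizing hearts at or near the floor. A limma fit of these 2 groups alone put it under the threshold (adjusted p = 0.02453). It passed the filter of that fit only through the isografts, where it is high, so nothing is read from that call. Lower without overlap by the brighter probe set were 3 of 5, Dcn, Ogn and Fmod, against 11.6% of all probe sets. On the second Ogn probe set the groups overlapped.

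At day 70 osteoglycin had the largest difference of the 5 genes between tolerizing allografts and isografts. The log2 difference of Ogn was -2.19 (SE 0.56, 95% interval -3.39 to -0.99) with an adjusted p of 0.0501 on the brighter probe set, just over the threshold. On the second probe set it was -1.65 (SE 0.39) with an adjusted p of 0.037, under the threshold, and all 3 tolerizing hearts were below both isografts on both. The brighter probe set passed the threshold under 10 of the 26 alternatives that gave it a value (adjusted p 0.008253 to 0.04637), and the second lost its call under 12 of 27. Leaving out tolerizing heart number 1 gave -1.33 and an adjusted p of 0.148 on the second probe set. Leaving out isograft number 1 gave -1.47 and 0.321, from 1 remaining isograft whose spread is taken to be that of the other groups. Lum was at -0.45 (95% interval -0.91 to 0.01, adjusted p = 0.344), Dcn at -0.43 (-1.07 to 0.21, adjusted p = 0.538), Bgn at 0.35 (-0.62 to 1.31, adjusted p = 0.777), with 0.24 (adjusted p = 0.671) and no overlap on its second probe set, and Fmod at -0.31 (-2.10 to 1.47, adjusted p = 0.912). By the brighter probe set 0 of 5 genes were called in limma, against 3.2% of all probe sets, with 1 at an unadjusted p under 0.05, against 15.4% of all probe sets, and 3 of 5 were lower without overlap, against 22.0%.

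Between day 70 and day 7 no member was called in either kind of graft. In tolerizing hearts Lum was at -0.77 (SE 0.19, 95% interval -1.18 to -0.36), lower in all 3 hearts of day 70 than in any of day 7, with an unadjusted p of 0.00137 and an adjusted p of 0.281. Of all probe sets 0.0385% were called in this comparison, and 1 of the 5 genes had an unadjusted p under 0.05, against 6.2% of all probe sets. Lower without overlap were 2 of 5, Lum and Bgn, against 8.61% of all probe sets. Ogn was at -0.91, Bgn at -0.56, Dcn at 0.06 and Fmod at 1.03, with adjusted p of 0.904, 0.95, 1 and 0.95. In isografts Lum was at -0.41, Bgn at -0.59, Fmod at -1.09, Dcn at -0.03 and Ogn at 0.20, with adjusted p of 0.946 to 1, and 0 of 5 had an unadjusted p under 0.05, while 559 of all 10395 probe sets did and 0 were called. The test of whether the tolerizing minus isograft difference itself changed between the days called 0 of 5 genes and 0 of all probe sets in limma, with 0 of 5 genes and 409 probe sets at an unadjusted p under 0.05. For Ogn that change was -1.12 (95% interval -2.73 to 0.49), so a larger shortfall at day 70 than at day 7 was not shown.

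**Figure D2:**
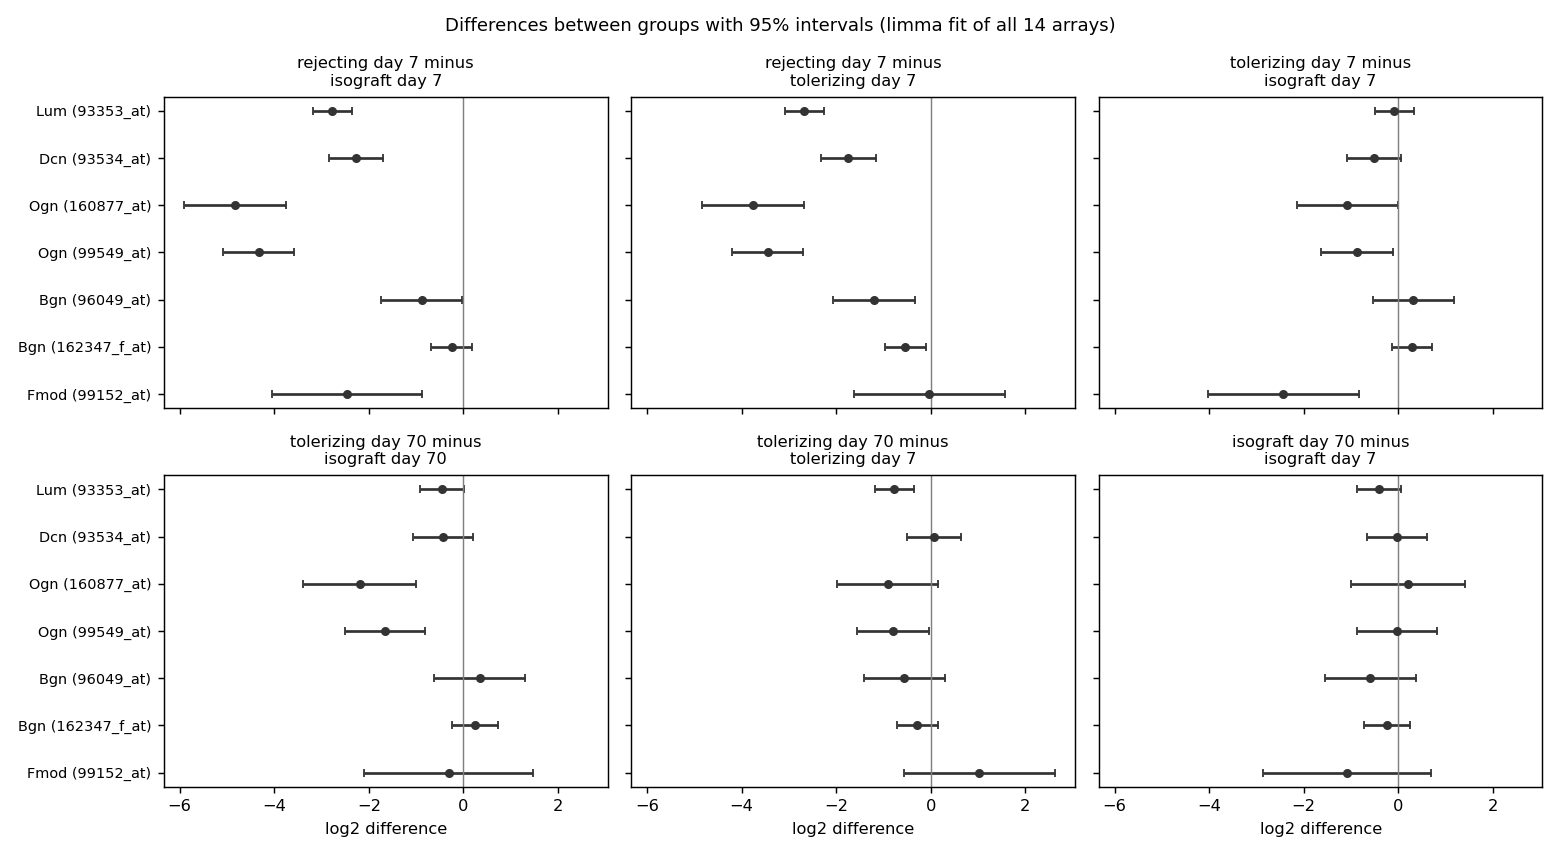
Log2 difference (points) with its 95% interval (bars) for each tested probe set in the 6 comparisons of 2 groups, from 1 limma fit of 14 arrays. Lum, Dcn and Ogn lie left of 0 in both rejecting comparisons, and at day 70 both Ogn probe sets lie left of 0 while Bgn spans it.

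Lum and Dcn are neighbouring genes on chromosome 10 in the RefSeq gene order, followed by Kera and Epyc, and Omd lies next to Ogn on chromosome 13. These neighbours, which encode other small leucine-rich proteoglycans (keratocan, epiphycan and osteomodulin), were at or under the floor on 10, 14 and 11 of 14 arrays. Of 12 further genes of the family, 4 were on the array and 3 were tested, and 0 of those 3 were called in any comparison by limma.

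Across the 14 arrays the members followed each other unevenly. The Pearson correlation of log2 signals was 0.90 between Lum and Ogn, 0.88 between Lum and Dcn and 0.84 between Dcn and Ogn, and it was 0.59 between Lum and Bgn. With group means removed the same pairs had 0.01, -0.39, -0.61 and 0.10. The other 6 pairs had 0.23 to 0.53 over all arrays and -0.27 to 0.43 with group means removed, with Dcn and Bgn the highest on both counts. Of 7363 genes, those most like Lum over the 14 arrays were Naalad2, Bmp6, Igsf10, Notch3 and Eln (correlation 0.93 to 0.96), and those most like Dcn were Aldh1a1, Tcf15, Cfhr2, Bmp6 and Sbf2 (0.95 to 0.96). Those most like Ogn were Ltbp4, Dpt, Tek, Ttc30b and Septin4 (0.95 to 0.96), those most like Bgn were Ltbp2, Cyb5r3, Ctsk, Pcolce and Fstl1 (0.81 to 0.89), and those most like Fmod, all near the floor, were Hgfac, Apoa5, Ctnnal1, Mark4 and Olfr157 (0.81 to 0.94). The arrays share their groups, so these correlations carry no p.

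The fibrillar collagens, the main partners of these proteoglycans, were set beside them. Of 16 collagen genes listed, 13 were on the array and 12 were tested. In rejecting hearts against isografts 1 rose and 1 fell, and the median was -0.29. Col2a1 was at 1.04 (adjusted p = 0.0402), with isograft signals of 2.7 to 13.3, around the floor, and rejecting signals of 19.6 to 31.1. Its difference thus depends on the floor. Col14a1, a fibril-associated collagen, was at -1.98 (adjusted p = 0.0204). Of all probe sets 17.7% were called in this comparison, 8.54% higher and 9.18% lower, and the counts of the lists that follow stand against these shares. Without rejecting heart number 3 the shares were 10.4% higher and 10.6% lower. Col1a1 read 4828, 3053 and 857.2 in rejecting hearts against 3651, 1732 and 3736 in isografts, a log2 difference of -0.30 (SE 0.55, adjusted p = 0.781), with heart number 3 again the lowest. Without that heart Col1a1 was at 0.42 (adjusted p = 0.538) and the list's median at 0.43, so neither sign holds without it. Col1a2 was at -0.29 (adjusted p = 0.816) and, without heart number 3, at 0.59 (adjusted p = 0.369). Col3a1 was at -0.77 (adjusted p = 0.158) and, without it, at -0.39, and these 3 collagens were picked after their values were seen. In tolerizing hearts Col3a1 was at -1.74 at day 70 against day 7 (adjusted p = 0.13) and Col1a1 at -1.94 (adjusted p = 0.395), neither called. Of the proteoglycans, Dcn was at 0.06 there, Lum at -0.77, Ogn at -0.91, Bgn at -0.56 and Fmod at 1.03, none called. In isografts between the same days Col3a1 was at -1.12 and Col1a1 at -1.28, again not called. Differences between collagens and proteoglycans were not tested.

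**Figure D3:**
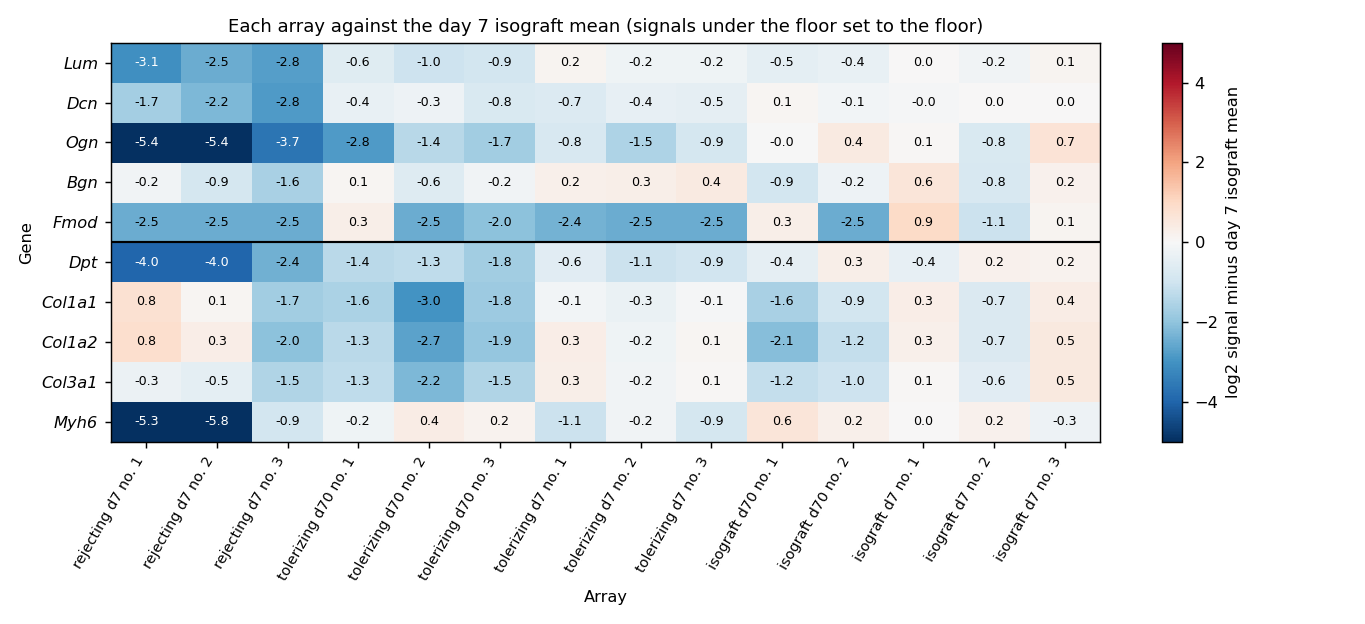
Log2 signal on each array minus the mean of the day 7 isografts for the 5 proteoglycan genes (above the line) and for Dpt, 3 collagen genes and Myh6 (below it), with signals under the floor set to it. Rejecting hearts 1 and 2 are low in Ogn, Lum, Dcn, Dpt and Myh6 but not in Col1a1 and Col1a2, whereas rejecting heart 3 is low in both collagens and less so in Myh6 than the other 2.

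Genes that make, process, cut or bind the proteoglycans were mostly not called. Of 12 tested genes of collagen processing and crosslinking, 2 rose and 1 fell in rejecting hearts against isografts. P4ha1, a prolyl hydroxylase subunit for collagen, rose by 1.34 (SE 0.40, adjusted p = 0.0318) and Pcolce, an enhancer of procollagen C-proteinase, fell by 0.85 (SE 0.25, adjusted p = 0.0309), and against tolerizing hearts Pcolce also fell, by 1.12 (adjusted p = 0.0459). Without rejecting heart number 3, 4 rose and 0 fell against isografts, and Pcolce was at -0.68 (adjusted p = 0.0858). Of 12 tested genes of glycosaminoglycan chain synthesis, 1 rose and 1 fell in rejecting hearts against isografts. Ugdh, which makes the UDP-glucuronic acid used in the chains, rose by 1.34 (SE 0.32, adjusted p = 0.00981), and Ugp2, which makes UDP-glucose, fell by 0.97 (adjusted p = 0.0184). Median differences of these lists were 0.04 and 0.05, against 0.04 over all probe sets, and 0.49 and 0.27 without rejecting heart number 3.

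Of 10 tested proteases that can cleave these proteoglycans, 2 rose and 1 fell in rejecting hearts against isografts. Gzmb, granzyme B of cytotoxic lymphocytes, which cleaves decorin and biglycan, rose by 3.19 (SE 0.63, adjusted p = 0.00364), and Mmp13, a collagenase, by 1.97 (adjusted p = 0.0159), while Ctsk, the collagen-degrading cathepsin K, fell by 1.22 (adjusted p = 0.0125). Of these 10, 3 rose and 1 fell without rejecting heart number 3. Of 21 tested ligands and receptors, 2 rose and 1 fell in the same comparison. Cd44, a hyaluronan receptor, rose by 2.05 (SE 0.33, adjusted p = 0.00121), Cd14, a co-receptor of Toll-like receptors that biglycan engages, by 1.38 (adjusted p = 0.00771), and Kdr, a receptor of vascular endothelial growth factor to which decorin binds, fell by 0.99 (adjusted p = 0.00914), and without rejecting heart number 3 the counts were 3 and 1. At day 70, C1qa, the complement subunit, rose by 2.13 (SE 0.34, adjusted p = 0.00373) and P2rx4 by 1.49 (adjusted p = 0.042) in tolerizing hearts against isografts, where 2.35% of all probe sets were called higher. Of 14 tested proteoglycans of other families, 5 fell and 1 rose in rejecting hearts against isografts. Sdc2, the cell surface proteoglycan syndecan-2, fell by 1.47 (SE 0.19, adjusted p = 0.000299) and also against tolerizing hearts, by 0.99 (adjusted p = 0.0206), and Srgn, the granule proteoglycan serglycin of leukocytes, rose by 1.59 (adjusted p = 0.00217), and without rejecting heart number 3, 4 fell and 1 rose. Acan, the large proteoglycan of cartilage, fell in both kinds of allograft at day 7, with an adjusted p of 0.00196 in rejecting and 0.0178 in tolerizing hearts. Its rejecting signals were all under the floor and its tolerizing signals, 7.5 to 14.2, around it, against 20.3 to 47.7 in isografts.

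Markers of several cell types moved in the same comparisons. In these bulk samples fewer cells of a type and less RNA per cell cannot be told apart. Of 18 tested fibroblast markers, 9 fell and 2 rose in rejecting hearts against isografts, with a median of -1.16. Dpt, dermatopontin, which binds decorin, fell by 3.45 (SE 0.39, adjusted p = 0.000121), with 2 of the 3 rejecting hearts under the floor. Tcf21, a transcription factor of cardiac fibroblasts, fell by 2.45 (SE 0.37, adjusted p = 0.000792), while S100a4 and Thy1 were the 2 that rose. With rejecting heart number 3 left out, 9 fell and 1 rose with a median of -0.84, and Thy1 was at 1.47 (adjusted p = 0.0747). The summed fibroblast marker signal was 4441 to 13304 in rejecting hearts, 5411 to 6426 and 9283 to 11111 in tolerizing hearts at days 70 and 7, and 6136 to 7315 and 9863 to 13465 in isografts at days 70 and 7, with none at the floor throughout a group. The collagens Col1a1, Col1a2 and Col3a1 are part of this sum. They read 4828, 2687 and 1430 in rejecting heart number 1 and 857.2, 368.7 and 616 in number 3. Against tolerizing hearts 5 of 18 fell and 0 rose, with or without rejecting heart number 3. Of all probe sets 0.885% were called lower with it and 4.52% without it. Of 8 tested markers of myofibroblasts and smooth muscle, 2 fell in rejecting hearts against isografts, with Postn, the matrix protein periostin, lower by a log2 of -3.55 (SE 0.54, adjusted p = 0.000876) and, against tolerizing hearts, by -3.61 (adjusted p = 0.00578), and their sums were 1356 to 3663 in rejecting hearts against 3618 to 3939 in tolerizing hearts and 2062 to 5093 in isografts at day 7. Without rejecting heart number 3, 2 of these 8 fell and 2 rose, Acta2, the smooth muscle actin, by 1.30 (adjusted p = 0.0483) and Tagln, transgelin, by 1.73 (adjusted p = 0.0215).

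Of 16 cardiomyocyte markers, 14 fell in rejecting hearts against isografts, with a median of -2.38 and sums of 6360 to 28786 against 45452 to 70675. Of 12 endothelial markers 6 fell, with a median of -0.91 and sums of 1264 to 1421 against 2120 to 2940, and among them were Tek (-1.90, adjusted p = 0.000679), Tie1 and Vwf. Of 20 leukocyte markers 14 rose, with a median of 1.64 and sums of 8410 to 10496 in rejecting hearts, against 4828 to 7842 in tolerizing hearts and 3095 to 3485 in isografts at day 7. At day 70, where the second Ogn probe set was called, 7 of 20 leukocyte markers rose in tolerizing hearts against isografts, with sums of 5232 to 7925 against 1373 to 2537, and among 18 fibroblast markers S100a4 rose by 2.30 (adjusted p = 0.0262) and Mfap4, a microfibril-associated protein, fell by 2.40 (adjusted p = 0.0499). In isografts of day 70 Cd247, Cd8a and Cd8b1 were at the floor. With rejecting heart number 3 left out, 14 cardiomyocyte markers and 7 endothelial markers fell and 14 leukocyte markers rose against isografts. Their medians were then -3.19, -0.97 and 1.44. Against tolerizing hearts, 2 of 16 cardiomyocyte markers fell, and 14 of 16 did without rejecting heart number 3. Of all probe sets 0.885% were called lower with it and 4.52% without it. The part of these cell types in the proteoglycan signals was not tested.

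**Figure D4:**
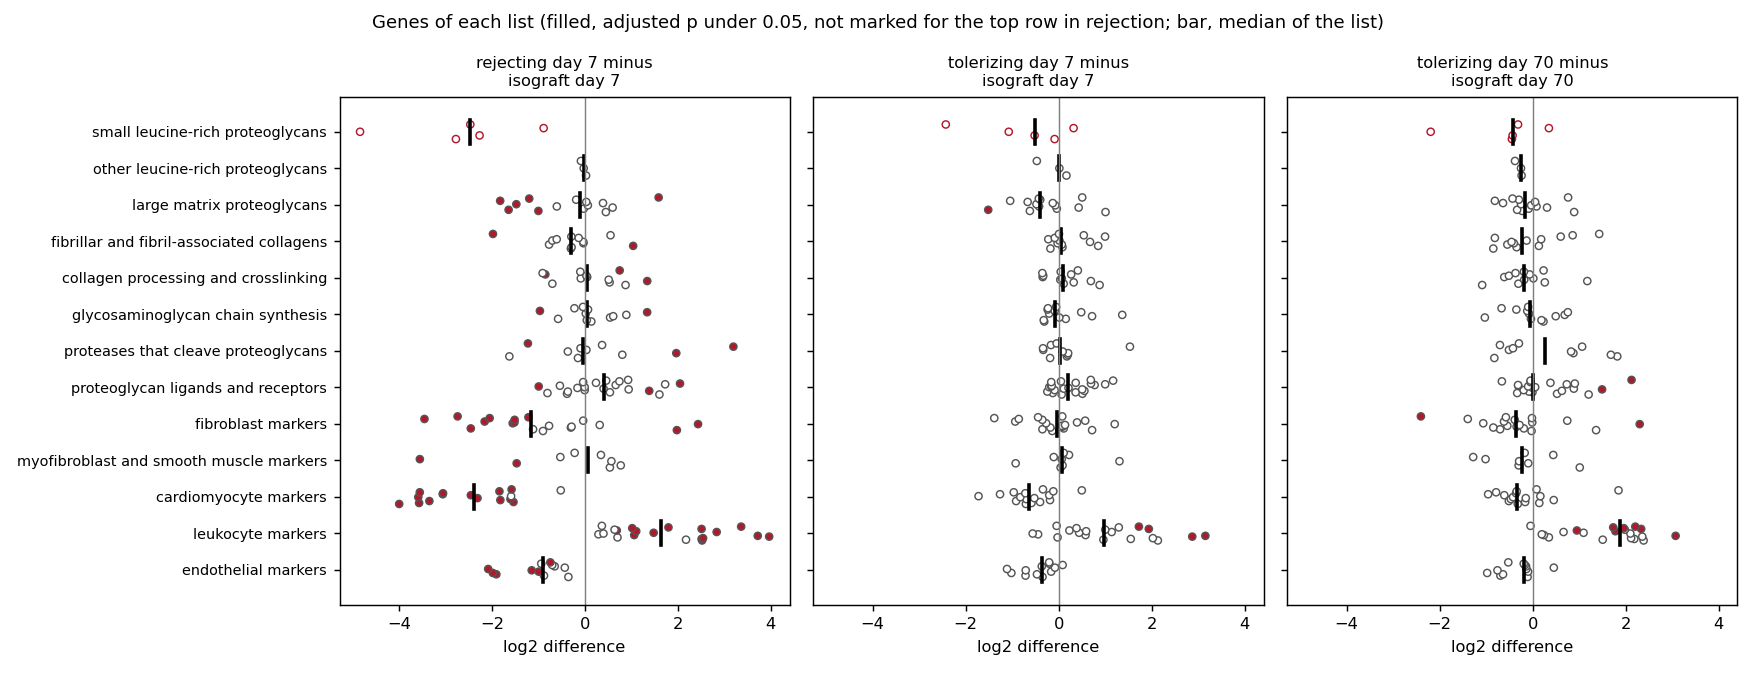
Log2 difference of each tested gene (circles) by list in 3 comparisons, filled where the adjusted p was under 0.05, with bars at list medians. In comparisons with rejecting hearts the small leucine-rich proteoglycans are drawn unfilled whatever their adjusted p. In rejecting hearts against isografts the median is -2.46 for the small leucine-rich proteoglycans, -2.38 for cardiomyocyte and -1.16 for fibroblast markers. It is -0.29 for the collagens and 1.64 for leukocyte markers. Without rejecting heart number 3 (not drawn) these medians are -2.46, -3.19, -0.84, 0.43 and 1.44. The -2.46 is the value of Fmod, whose rejecting signals were all set to the floor, so it stayed the same without that heart.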

How the data were processed

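Gene expression was measured on 14 MG-U74Av2 arrays, 1 per transplanted heart. The deposited table holds 1 signal intensity per probe set on a linear scale, with software and scaling by the authors that are not given in the sources that were used. The deposited intensity, averaged without the outermost 2% at either end, was 100.06 to 100.07 on each of the arrays, so no further scaling was applied. A floor of 11, which is the 25th percentile of the signals, replaced lower values before log2 was taken, and 66 control probe sets were left out. Testing was limited to the 10395 probe sets (7366 genes) that exceeded the floor on 3 or more arrays. Depth is not defined for arrays, and their number limits the precision.

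Groups, days and replicate numbers were taken from the labels. All 14 arrays entered 1 fit in limma 3.58.1 under R 4.3.3 (lmFit, contrasts.fit, eBayes with an intensity trend; 9 residual and 4.45 prior degrees of freedom). Two-sided p-values were adjusted by Benjamini-Hochberg across the tested probe sets within each comparison and called under 0.05. The tests were 6 comparisons of 2 groups and 1 interaction. A difference is the log2 signal of the group named first less that of the other.

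The brightest probe set over all arrays stands for a gene, and all probe sets of the 5 proteoglycan genes are shown. From every other list up to 3 called genes with the smallest p per comparison could be named, and for each member the 5 genes with the highest correlation. Genes named beyond that rule, such as Col1a1, Col1a2, Col3a1, Thy1 and the neighbours of the members, were chosen after their values were seen. The members and lists were chosen with earlier results of these data known. Gene symbols are those of the platform annotation after an update by gene ID through RefSeq, with 10833 probe sets of 1 gene, 396 of several and 1193 of none. Promoter sequences were found for 3 of the 5 genes. Alternatives covered scaling, floor, filter, trend, probe set, replicate number, accession run, beta-actin ratio, groups in the fit and each array left out.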

Additional observations from a re-analysis of the deposited data

How the results depend on the processing

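Of 27 alternatives, 14 left out 1 array. Lum, Dcn and Ogn kept a negative difference in both rejecting comparisons under every alternative that gave a value: -2.93 to -2.53 for Lum, -2.55 to -1.42 for Dcn and -5.50 to -2.44 for Ogn over both. Called member genes in rejecting hearts against isografts were 2 in place of 4 where a probe set had to be above the floor on all arrays, which removes Ogn and Fmod. With 1 array left out that count was 3 to 5, while 1309 to 2176 of all probe sets were called. Nothing is read from these counts, because this contrast led to the choice. Fmod lost its call in this comparison under 9 of the 26 alternatives that gave it a value. Dcn lost its call in rejecting against tolerizing hearts under 1, the fit of those groups alone. In the fit of tolerizing hearts and isografts of day 7 alone, Fmod passed the filter only through the isografts. The count of called member genes for these 2 groups was 1, Fmod, in place of 0 in that fit and with the replicate block. At day 70 it was 1, Ogn, in place of 0 with the floor at the 50th percentile, a pseudocount of 16, the replicate block, the accession run as a block, the actin ratio in the fit and the fit of those 2 groups alone (adjusted p 0.008253 to 0.04298), and 0 to 1 with 1 array left out, being 1 without isograft number 2 of day 7, rejecting heart number 1 or 3, or tolerizing heart number 2 of day 70 (adjusted p 0.0137 to 0.0464). The call of the second Ogn probe set at day 70 was lost under 12 alternatives (adjusted p 0.0508 to 0.321). The cause was not tested.

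Median correlations of deviations from group means were 0.054 in 26 array pairs of the same replicate number and -0.057 in 52 others. Numbers overlap with runs, so pairing was not tested on its own. With the replicate block, Fmod had an adjusted p of 0.0485 at day 7 and Ogn 0.0159 at day 70. No other member call changed. All probe sets called went to 1991 in rejecting hearts against isografts and to 12 in place of 4 in tolerizing hearts between days.

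Signs turned only for differences that were not called. With 1 array left out, the lowest and highest values were -0.40 and 0.018 for the second Bgn probe set in rejecting hearts against isografts, -0.089 and 0.62 for Bgn in tolerizing hearts against isografts at day 7, -1.69 and 1.06 for Fmod at day 70, and -0.037 and 0.21 for Dcn in tolerizing hearts between the days. In isografts between the days they were -0.17 and 0.54 for Ogn, -0.35 and 0.30 for its second probe set, -0.14 and 0.090 for Dcn and -2.46 and 0.29 for Fmod, and in the interaction -0.31 and 0.44 for Bgn, -0.13 and 0.031 for its second probe set and -0.028 and 0.24 for Dcn. In the second run alone, the second Bgn probe set was at 0.033 in rejecting hearts against isografts, Lum at 0.031 in tolerizing hearts against isografts at day 7, and in isografts between the days Dcn was at 0.099, the second Ogn probe set at 0.47 and Fmod at 0.36. With the run as a block Dcn was at 0.022 there. With the actin ratio in the fit Fmod was at 0.052 in rejecting against tolerizing hearts, Dcn at 0.011 in tolerizing hearts against isografts at day 7, at -0.31 between the days and at -0.22 in the interaction, and the second Ogn probe set at 0.042 in isografts between the days. With the replicate block that Ogn probe set was at 0.13 and the second Bgn probe set at 0.0066 in the interaction. Taking the other probe set gave -0.035 for Ogn in isografts between the days and -0.045 for Bgn in the interaction, where quantile scaling gave -0.12.

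All probe sets called ranged from 1309 to 2176 (main value 1842) for rejecting hearts against isografts, 34 to 771 (147) against tolerizing hearts, with 771 without rejecting heart number 3, 8 to 317 (176) and 81 to 453 (333) for tolerizing hearts against isografts at days 7 and 70, 0 to 34 (4) and 0 to 31 (0) between days in tolerizing hearts and isografts, and 0 to 3 (0) for the interaction.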
